A study of Homo sapiens with 5 samples.

Results

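The genes described are 10 molecular chaperones and partner proteins of the HSP90 and HSP70 systems, out of 6309 genes for which the authors' deposited table gives a change in translation efficiency. They were chosen by name, with HSP90AA1, HSP90AB1, HSPA8, HSPD1 and FKBP4 as the core and HSPA4, HSPA9, HSPH1, STIP1 and TRAP1 added, and all 10 were present. The choice was made with the drug's coefficients of these genes known, so each coefficient, p-value and count below is a description of the genes selected on it and not a test. The cells were wild-type HL-60, an established human promyelocytic leukaemia line. The groups compared were decitabine at 100 nM, given at 0, 24 and 48 hours, and DMSO, the solvent, and cells of both were lysed at 72 hours. The labels list 2 total RNA libraries for each treatment and 1 library of ribosome-protected fragments, in which barcoded samples were pooled.

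Translation efficiency compares, for each gene, the mRNA held by ribosomes with the mRNA present in the lysate. The table gives 1 coefficient per gene for decitabine against DMSO, with its p-value, so no value per library can be shown and the depth of the libraries is unknown. A coefficient above 0 was read as higher translation efficiency with the drug. The headers state neither a log scale nor a base, and the coefficient was taken as a natural log. On that reading 0.33 is a 1.39-fold level, and on a log2 reading it is 1.26-fold. Each error is an implied standard error (SE), which is the coefficient over the z-value that matches its p-value, and each 95% interval is built from it. A gene was said to rise or fall only where the adjusted p-value per the authors' deposited table was below 0.05. Over all genes the coefficients had a median of 0.09, not 0, so values relative to that median are also given. All 10 genes of a myeloid precursor marker list, among them MPO, ELANE and PRTN3, were present, against 0 of 14 erythroid and megakaryocyte markers and 2 of 12 lymphoid markers (CD4 and NKG7). The wells were seeded in duplicate, and the sources used here do not say that they came from separate cultures, so the p-values can hold technical spread alone.

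HSP90 and HSP70 are ATP-driven chaperones that bind other proteins and help them to reach or keep their folded form. HSP70 takes unfolded stretches early and is loaded by J-domain proteins and emptied by nucleotide exchange factors, while HSP90 receives nearly folded clients such as kinases and steroid receptors from HSP70 through the adaptor STIP1. Each compartment has its own paralogue, and heat or unfolded protein induces some of the genes through the transcription factor HSF1. Many cancer cells are known to depend on HSP90 for the folding of their kinases.

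Translation efficiency of 3 of the 10 chaperone genes rose with decitabine, and none fell: HSP90AA1, HSPA8 and HSP90AB1 per the authors' deposited table. Over all 6309 genes 0.634% rose and 0.808% changed in either direction, and these shares are given only as background because the same contrast chose the genes. The other 7 did not pass. The coefficients ran from -0.021 for HSPA4 to 0.36 for FKBP4 per the authors' deposited table, with a median of 0.23 against 0.09 for all genes. Of the 10, 9 lay above 0, against 4103 of all 6309 genes, and 8 lay above the median of all genes. An unadjusted p below 0.05 was found for 7, all higher, against 8.35% of all genes that were higher at that level. The 95% interval lay above the median of all genes for 5 of the 10 (HSP90AA1, HSP90AB1, HSPA8, FKBP4 and HSPA9). For the other 5 it held that median. The share of all genes with an interval above the median was not computed.

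Translation efficiency was higher for both cytosolic HSP90 genes. HSP90AA1 encodes HSP90-alpha, the stress-inducible form. Its coefficient was 0.33 ± 0.047 (implied SE, adjusted p = 2.45e-09) per the authors' deposited table, which is 1.39 times the DMSO level (95% interval 1.27 to 1.53). By p-value it was rank 2 of all genes, directly after the granule enzyme MPO and before the actin gene ACTG1, which fell. HSP90AB1 encodes HSP90-beta, the constitutive form, and had 0.21 ± 0.048 (adjusted p = 0.00262) per the authors' deposited table, or 1.24 times (1.13 to 1.36). Its rank by p-value was 17, between MCM4, which rose, and RPL10, which fell. After subtraction of the median of all genes HSP90AA1 still passed, with a coefficient of 0.24 (adjusted p = 0.00029), whereas HSP90AB1 did not, with 0.12 (adjusted p = 0.428), both recomputed from the authors' p-values. After that subtraction 0.0793% of all genes passed at an adjusted p below 0.05 and were higher. The mitochondrial member of the family, TRAP1, had 0.26 ± 0.13 (adjusted p = 0.426) per the authors' deposited table, a value between those of the cytosolic forms with an interval of 0.018 to 0.51.

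HSPA8 encodes HSC70, the constitutive cytosolic HSP70 that folds new chains, uncoats clathrin vesicles and directs proteins to lysosomes. It rose as well, at 0.25 ± 0.041 (implied SE, adjusted p = 1.89e-06) per the authors' deposited table, or 1.28 times the DMSO level (1.18 to 1.39). Relative to the median of all genes it was 0.15 and still passed (adjusted p = 0.0388, recomputed from the authors' p-values). Its rank by p-value was 7, after the elongation factor gene EEF2, which fell, and before the nucleolin gene NCL, which rose. HSPA9 encodes mortalin, the mitochondrial HSP70 that pulls imported proteins into the matrix. Its coefficient of 0.31 ± 0.10 was larger than that of HSPA8 but did not pass (adjusted p = 0.131) per the authors' deposited table.

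Of 13 HSP70 family genes listed, 5 were measured, and HSPA8 was the only call among them. HSPA5, the HSP70 of the endoplasmic reticulum known as BiP, had 0.16 ± 0.059 (adjusted p = 0.199), and HSPA13, a microsomal form, had 0.25 ± 0.17 (adjusted p = 0.643) per the authors' deposited table. HSPA14, which works at the ribosome, had -0.27 ± 0.37 (adjusted p = 0.858) per the authors' deposited table. The heat-inducible genes HSPA1A, HSPA1B and HSPA6 were not analysed here, so the comparison of inducible with constitutive HSP70 could not be made.

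**Figure D1:**
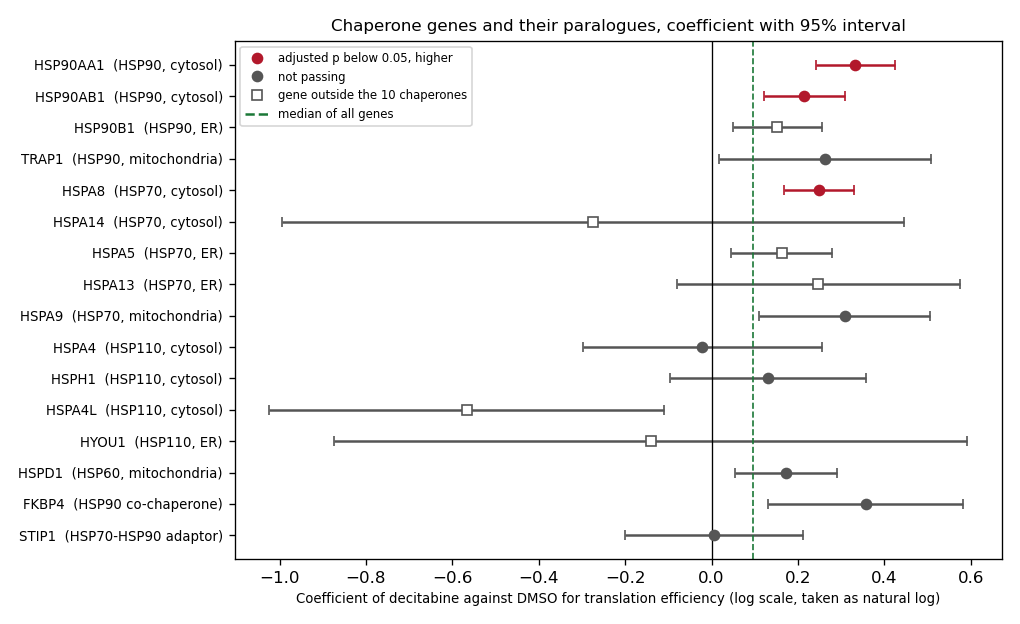
Coefficient of decitabine against DMSO for translation efficiency (x axis, taken as natural log) of the 10 chaperone genes (filled circles) and of 6 paralogues outside that set (open squares), by family and compartment. Bars are 95% intervals from the implied SE, red marks adjusted p below 0.05, and the dashed line is the median of all genes (0.09). HSP90AA1, HSP90AB1 and HSPA8 are the red points, and HSPA4, HSPA4L, HSPA14 and HYOU1 lie below 0.

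HSP110 proteins are large relatives of HSP70 that act as its nucleotide exchange factors and take part in pulling aggregates apart. None passed. HSPA4 had a coefficient of -0.021 ± 0.14 (adjusted p = 0.975) and HSPH1, the heat-inducible form, had 0.13 ± 0.12 (adjusted p = 0.762) per the authors' deposited table. HSPA4L, a relative outside the chosen genes, had -0.57 ± 0.23 (unadjusted p = 0.015, adjusted p = 0.309) per the authors' deposited table. HYOU1, the form of the endoplasmic reticulum, had -0.14 ± 0.37 (adjusted p = 0.941) per the authors' deposited table. The median of the 4 was -0.081, and 3 of them lay below the median of all genes.

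HSPD1 encodes HSP60, the barrel-shaped chaperonin of the mitochondrial matrix. It had 0.17 ± 0.060 (adjusted p = 0.169) per the authors' deposited table, or 1.19 times the DMSO level (1.06 to 1.34), and 0.078 relative to the median of all genes. HSPE1, its lid protein HSP10, was not analysed here. The 3 mitochondrial genes HSPA9, TRAP1 and HSPD1 had a median of 0.26, and the 7 cytosolic genes of the set, from HSPA4 at -0.021 to FKBP4 at 0.36, had a median of 0.21 per the authors' deposited table.

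The partner proteins FKBP4 and STIP1 had the largest coefficient of the set and the second smallest. FKBP4 encodes FKBP52, a prolyl isomerase that binds the C-terminal end of HSP90 in steroid receptor complexes. Its coefficient of 0.36 ± 0.12 was the largest of the 10, or 1.43 times the DMSO level (1.14 to 1.79), but it did not pass the threshold (adjusted p = 0.122) per the authors' deposited table. STIP1 encodes HOP, which bridges HSP70 and HSP90, and had 0.0053 ± 0.10 (adjusted p = 0.992) per the authors' deposited table. Relative to the median of all genes, STIP1 was -0.090 and FKBP4 0.26, and neither passed (adjusted p = 0.904 and 0.509, recomputed from the authors' p-values).

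Which of the 10 genes passed followed their precision as well as their size. The median implied SE was 0.25 over all genes, and all 10 were below it, with 9 among the most precise 10% of genes. The 3 that rose had implied SEs of 0.041 to 0.048, whereas the 7 that did not pass had 0.060 to 0.14. FKBP4, HSPA9 and TRAP1 had larger coefficients than HSP90AB1 and did not pass. With its own SE, FKBP4 would have needed a coefficient of 0.41 to pass, HSPA9 0.36 and TRAP1 0.44, against 0.17 for HSP90AB1. HSPD1 would have needed 0.21. Among the 11 genes measured at least as precisely as HSP90AA1, itself included, 0 had a higher coefficient than it did. Among the 8 as precise as HSPA8, 1 was higher, and among the 15 as precise as HSP90AB1, 3 were higher. HSP90AA1 and HSPA8, themselves chosen genes, were among those 3. Over all genes, where imprecise values spread widely, 82.0% had a lower coefficient than HSP90AA1, 73.1% than HSPA8 and 69.1% than HSP90AB1.

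**Figure D2:**
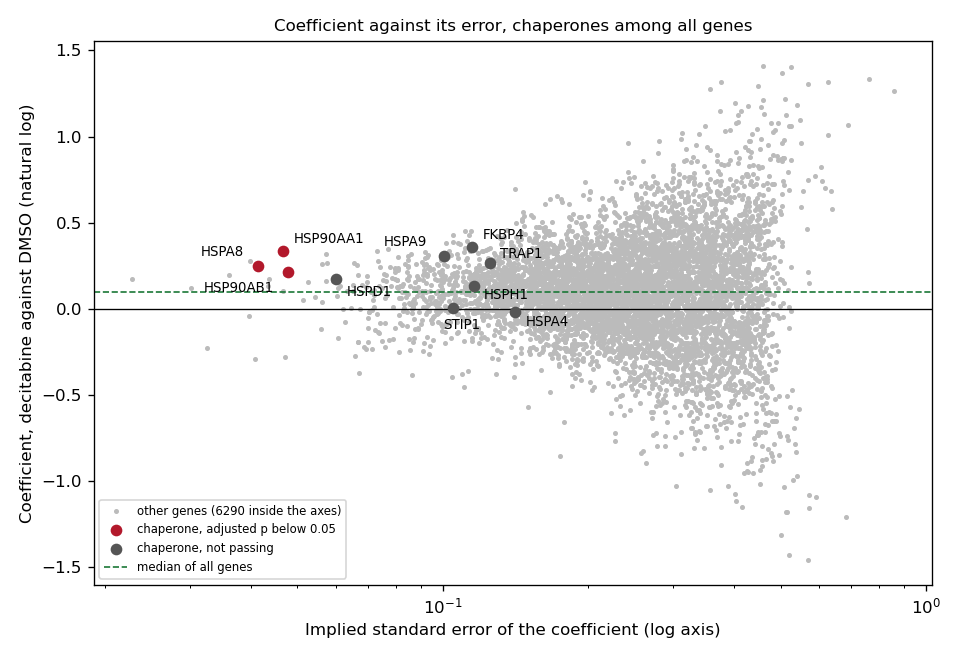
Coefficient of each gene (y axis, natural log) against its implied SE (x axis, log scale), with the 10 chaperone genes labelled and other genes in grey; 9 genes lie outside the axes. HSP90AA1, HSPA8 and HSP90AB1 (red, adjusted p below 0.05) lie at the precise left edge above the dashed median of 0.09, and FKBP4, HSPA9 and TRAP1 lie as high or nearly so with larger errors.

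Inducible and constitutive forms could be compared for HSP90 and HSP110. HSP90AA1 exceeded HSP90AB1 by 0.12 ± 0.067 (SE from both implied SEs, taken as independent), with a 95% interval of -0.012 to 0.25, and the ratio of their folds was 1.13. HSPH1 exceeded HSPA4 by 0.15 ± 0.18, with an interval of -0.21 to 0.51. A shift of all coefficients leaves such differences as they are. These values rest on coefficients per the authors' deposited table and were not tested, because the same contrast chose the genes.

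Cytosolic and mitochondrial paralogues differed by less than their errors. The difference was 0.069 ± 0.13 for HSP90AA1 minus TRAP1, with an interval of -0.19 to 0.33, and -0.049 ± 0.13 for HSP90AB1 minus TRAP1, with one of -0.31 to 0.21. For HSPA8 minus HSPA9 it was -0.06 ± 0.11, with an interval of -0.27 to 0.15. The intervals are wide enough to hold a difference as large as the coefficient of HSP90AB1, and they do not show that the paralogues moved alike.

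HSP90B1 and HSPA5 of the endoplasmic reticulum had smaller coefficients than HSP90AA1, HSP90AB1 and HSPA8. Of the other paralogues of that compartment, HSPA13 had 0.25, above HSP90AB1 and near HSPA8, and HYOU1 had -0.14 per the authors' deposited table. No difference with HSPA13 was computed. HSP90B1, known as GRP94, had 0.15 ± 0.053 (adjusted p = 0.164) per the authors' deposited table. HSP90AA1 minus HSP90B1 was 0.18 ± 0.070, with an interval of 0.043 to 0.32. HSP90AB1 minus HSP90B1 was 0.062 ± 0.071, and HSPA8 minus HSPA5 was 0.085 ± 0.072. Of 10 differences between paralogues, 9 had an interval that held 0, and that between HSP90AA1 and HSP90B1 did not; the intervals are not adjusted for their number.

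**Figure D3:**
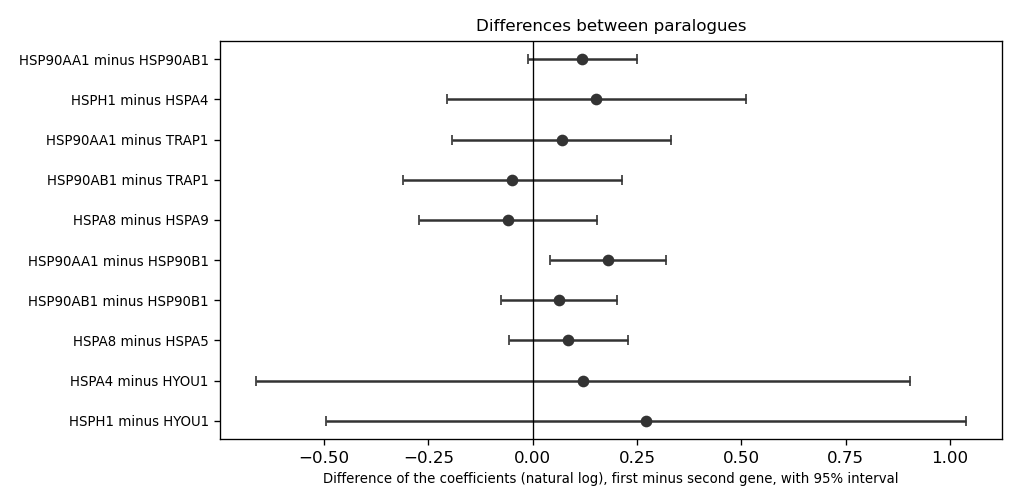
Differences of the coefficients between paralogues (x axis, natural log, first minus second gene) with 95% intervals that take the implied SEs as independent. The interval for HSP90AA1 minus HSP90B1 (0.043 to 0.32) lies to the right of 0, that for HSP90AA1 minus HSP90AB1 (-0.012 to 0.25) just reaches it, and both comparisons with HYOU1 are the widest.

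The further co-chaperones were 32 genes outside the set from a list of 41. They included no call in either direction at an adjusted p-value under 0.05 per the authors' deposited table. Over all genes that share was 0.808%, so a list of this size can hold no call without differing from all genes. An unadjusted p below 0.05 was found for 6 of the 32, against 650 of all 6309 genes. The median of the 32 was 0.093, against 0.095 for all genes. Of the 6, 5 were above 0. PTGES3, the p23 protein that holds the closed form of HSP90, had 0.29 ± 0.092 (adjusted p = 0.103), and AHSA1, which activates its ATPase, had 0.38 ± 0.18 (adjusted p = 0.439) per the authors' deposited table. DNAJC7, a J-domain protein that binds both chaperones, had 0.36 ± 0.16 (adjusted p = 0.393) per the authors' deposited table. NUDCD3 had 0.70 ± 0.29 (adjusted p = 0.333) and TTC5 had 0.66 ± 0.33 (adjusted p = 0.464) per the authors' deposited table. HSPA4L was the sixth and the only lower gene of them. The 22 HSP90 co-chaperones outside the set had a median of 0.15. CDC37, which brings kinases to HSP90, had 0.16 (adjusted p = 0.765), and FKBP5, the close relative of FKBP4, had -0.078 (adjusted p = 0.935) per the authors' deposited table. Of the 12 exchange factors and other HSP70 partners, with HSPH1, HSPA4 and their relatives counted among them, 7 lay below 0, and the median was -0.013. The exchange factors BAG4 and BAG1 had -0.25 (adjusted p = 0.798) and 0.21 (adjusted p = 0.856) per the authors' deposited table.

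**Figure D4:**
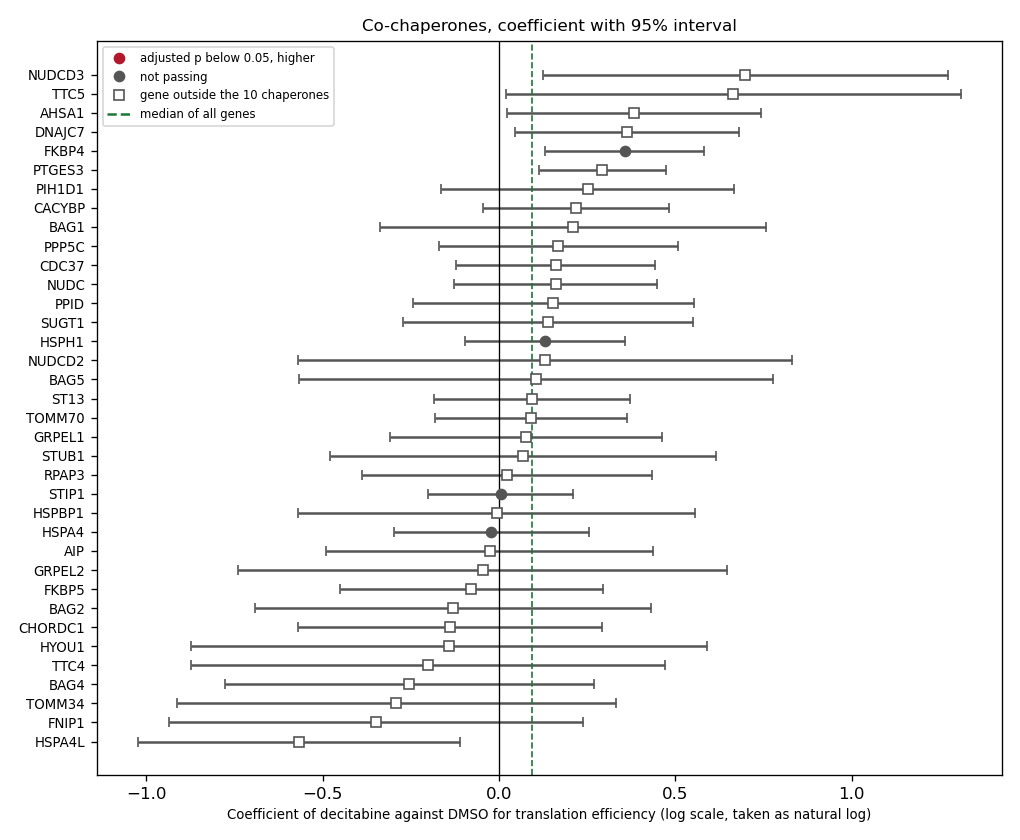
Coefficients (x axis, natural log) of the measured co-chaperones of HSP90 and HSP70 with 95% intervals, in order of size; filled circles belong to the 10 chaperone genes, open squares do not, and the dashed line is the median of all genes. None passed, and the order runs from NUDCD3 (0.70) to HSPA4L (-0.57), with FKBP4 in the upper and STIP1 in the middle range.

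The promoters were searched for heat shock elements, the sites that HSF1 binds, which are known from heat-inducible chaperone genes. RefSeq promoter sequences (GRCh38.p14) were at hand for 9 of the 10 genes, with 14 annotated starts; FKBP4 had no entry. The core searched in the 250 bases upstream of each start was GAANNTTC or TTCNNGAA, each of which reads the same on both strands, with overlaps allowed, and the long element of 3 units was GAANNTTCNNGAA or its reverse complement TTCNNGAANNTTC. HSP90AA1, HSP90AB1, HSPA8 and HSPD1 held the long element upstream of 1 annotated start each. These are the 3 genes that rose and HSPD1. Because the genes were chosen on that contrast, a link between the element and the coefficients was not tested. No core was found in these windows for HSPA4, HSPA9, HSPH1, STIP1 and TRAP1. Only exact matches were searched, so variant or more distant sites in these genes would be missed. The long element was present upstream of 0.314% of the 7329 starts of genes with a coefficient and of 0.441% of all 35116 starts. The core was present upstream of 8.88% and 11.6% of them. In HSP90AA1 the cores begin 88, 83 and 68 bases upstream of the downstream start, in HSP90AB1 165, 160, 112 and 107, in HSPA8 230, 225, 55 and 50, and in HSPD1 245, 240 and 235. The other annotated starts of HSP90AA1, HSP90AB1 and HSPD1 had no core. Each deposited value belongs to 1 named transcript per gene, and the start of that transcript was not matched to the starts searched.

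The windows of the 3 genes that rose are printed with the cores in capitals, to show where they lie. They are chr14:102087045-102087294 on the minus strand for HSP90AA1, chr6:44247693-44247942 on the plus strand for HSP90AB1 and chr11:123062137-123062386 on the minus strand for HSPA8, and each ends at the base before the start.
HSP90AA1: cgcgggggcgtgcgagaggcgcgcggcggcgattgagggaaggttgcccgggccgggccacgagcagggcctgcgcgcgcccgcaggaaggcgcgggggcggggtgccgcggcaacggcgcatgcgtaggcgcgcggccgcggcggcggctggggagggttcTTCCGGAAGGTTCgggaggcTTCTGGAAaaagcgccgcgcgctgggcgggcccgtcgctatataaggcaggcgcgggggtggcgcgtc
HSP90AB1: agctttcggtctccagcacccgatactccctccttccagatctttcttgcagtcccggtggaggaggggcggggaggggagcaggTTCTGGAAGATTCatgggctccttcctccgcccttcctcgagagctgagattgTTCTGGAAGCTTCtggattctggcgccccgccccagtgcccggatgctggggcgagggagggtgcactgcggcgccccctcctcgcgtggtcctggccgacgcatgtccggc
HSPA8: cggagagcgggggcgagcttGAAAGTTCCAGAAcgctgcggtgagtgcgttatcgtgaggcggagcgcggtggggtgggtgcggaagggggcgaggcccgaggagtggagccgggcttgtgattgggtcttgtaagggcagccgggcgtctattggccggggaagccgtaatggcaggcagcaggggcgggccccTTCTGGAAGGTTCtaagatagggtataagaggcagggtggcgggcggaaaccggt
HSP90AA1 has 1 long element with a separate core downstream of it, while HSP90AB1 and HSPA8 have 2 long elements each. A match of letters is not a measured site, and transcription was not compared here.

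Of the 5145 genes with a coefficient and a promoter entry, 22 held the long element, a group defined after the promoters of the chaperones were seen. Of these, 4 rose and 0 fell, against 27 and 11 of the 5123 genes without it. The 3 chaperones, which were chosen on this contrast, were among the 4. The other was HNRNPA2B1, an RNA-binding protein of splicing and RNA transport, with 0.25 ± 0.066 (adjusted p = 0.0276) per the authors' deposited table and an adjusted p of 0.466 after centring on the median. With the 4 chaperones left out, the other 18 genes had a median of 0.13, with 1 call, against 0.09 for the genes without the element, and 10 lay above and 8 below the median of all genes. CHORDC1, an HSP90 partner and known target of HSF1, held the element and had -0.14 ± 0.22 (adjusted p = 0.886) per the authors' deposited table. MRPL51, a mitochondrial ribosomal protein, had the largest coefficient of the 22, 0.85 ± 0.33 (adjusted p = 0.233) per the authors' deposited table.

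**Figure D5:**
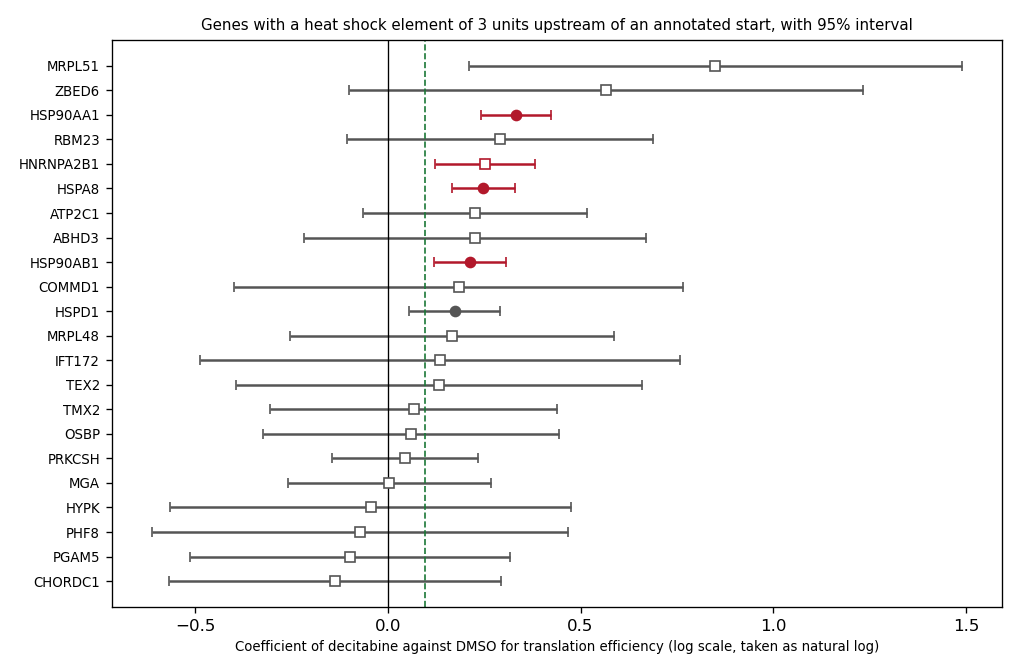
Coefficients (x axis, natural log) with 95% intervals for the 22 genes that have a heat shock element of 3 units in the 250 bases upstream of an annotated start; filled circles are chaperones of the set, open squares are other genes, red marks adjusted p below 0.05 and the dashed line is the median of all genes. HSP90AA1, HSPA8, HSP90AB1 and HSPD1 have the narrowest intervals, followed by HNRNPA2B1 (implied SE 0.066), which is outside the set and also red. Most of the others span 0.

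The first bases of the transcripts were read for the terminal oligopyrimidine pattern, a C followed by 4 pyrimidines (C or T) at the start, which marks mRNAs under growth-dependent translational control. It was found at 1 of 3 annotated starts of HSP90AB1 and 1 of 2 of HSPD1, and at 5.51% of the 7329 starts. The starts of the genes that rose and of HSPD1 are given from 5 bases before to 15 bases from the start, with the first 5 transcribed bases in capitals.
HSP90AA1, upstream start: ggcccGACTGcgcaggcgtg
HSP90AA1, downstream start: gcgtcAGTTGcttcagcgtc
HSP90AB1, first start: actccACTCTcagtctgcaa
HSP90AB1, middle start: tagctCTCTCgagtcactcc
HSP90AB1, last start: ccggcAGTGAcgagtgtcgg
HSPA8: ccggtCTCATtgaactcgcc
HSPD1, upstream start: cggtcGCCCCgacgcgcacc
HSPD1, downstream start: tctgtCCCTCactcgccgcc
The 401 genes with the pattern at any start had a median coefficient of 0.030 and the 4744 without it 0.099, with 2 higher and 5 lower calls among the former and 29 higher and 6 lower among the latter. HSP90AB1, whose middle start has the pattern, was among those 2. Which start HL-60 cells use was not measured, and annotated starts can differ from those used.

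In the related gene lists below, no gene outside the set passed, against 0.808% of all genes that changed in either direction. Among 14 measured heat-shock-induced genes, of which 5 belong to the set, HSP90AA1 was the only call, the median was 0.11, and 7 lay above and 7 below the median of all genes. DNAJB1, the J-domain partner induced with HSP70, had 0.14 (adjusted p = 0.881), and HSPB1, the small heat shock protein HSP27, had -0.41 ± 0.31 (adjusted p = 0.701) per the authors' deposited table. HSF1 itself had -0.28 ± 0.26 (adjusted p = 0.768) and HSF2 0.39 ± 0.31 (adjusted p = 0.713) per the authors' deposited table.

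Of 9 mitochondrial chaperones and proteases outside the set, none passed, against 0.808% of all genes, and the median was 0.077. An unadjusted p below 0.05 was found for 650 of all 6309 genes and for 1 of these 9. That gene was HTRA2, a protease of the intermembrane space, with -0.70 ± 0.33 (adjusted p = 0.421) per the authors' deposited table. GRPEL1, the exchange factor of HSPA9, had 0.077 ± 0.20 (adjusted p = 0.939), and LONP1, the matrix protease, 0.14 ± 0.14 (adjusted p = 0.782) per the authors' deposited table. Of 25 measured HSP90 clients, mostly kinases, none passed, against the same 0.808% of all genes. Among these clients 1 had an unadjusted p below 0.05, and their median was 0.060. That client was RIPK1, a kinase of cell death signalling, with 0.72 ± 0.33 (adjusted p = 0.406) per the authors' deposited table. CHEK1, the checkpoint kinase next in order of p-value, had -0.37 ± 0.19 (adjusted p = 0.489), and TERT, the telomerase subunit, had 0.70 ± 0.39 (adjusted p = 0.546) per the authors' deposited table. Of the 25, 7 lay below 0 and 13 below the median of all genes.

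Several of these genes have pseudogenes of similar sequence. In the RefSeq annotation 22 pseudogenes carry the name of HSPD1, 20 that of HSPA8, 6 that of the HSP90AB family, 5 that of the HSP90AA family, 5 that of FKBP4, 3 that of STIP1 and 2 that of HSPA9, and none that of HSPA4, HSPH1 or TRAP1. The genes that rose all have such copies, and HSP90AA1 and HSP90AB1 also resemble each other. The handling of reads that fit several copies is not stated in the labels or headers, so the values of these genes are uncertain to that extent, and the part of shared reads in them was not tested. On GRCh38.p14 HSP90AA1 spans chr14:102080742-102139749, HSP90AB1 chr6:44246194-44253883, HSPA8 chr11:123057489-123062462, HSPD1 chr2:197486584-197500274 and FKBP4 chr12:2794970-2805423 as whole genes.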

How the data were processed

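Ribosome-protected fragments and total RNA were sequenced. Per the submitters' processing notes, Bowtie2, SAMtools 1.11 and UMI-tools 1.1.1 were used with build hg38; each tool's role, the model and the library scaling were not given in the sources used here. Per the file headers, the deposited table gives a coefficient on a log scale, taken as natural log, with its p-value, adjusted p-value and q-value. Recomputing Benjamini-Hochberg over all 6309 genes returned the authors' adjusted values, with a largest difference of 6.61e-14.

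From these, implied standard errors, 95% intervals, fold values, centred coefficients and differences between genes were computed in Python 3.11.15 with scipy 1.17.1, and p-values after centring were adjusted by Benjamini-Hochberg over all genes. The procedure was tested on simulated data. The 10 genes and all gene lists were chosen with earlier results of these data known. The genes named are the 10 and their measured family members, every call of each list with examples among the smallest p-values, and the neighbours of the called genes in the order of p-values; CDC37, FKBP5, DNAJB1, GRPEL1, LONP1, HNRNPA2B1, CHORDC1 and MRPL51 were chosen after their values were seen. Counts per library were not analysed here, so no count model was run.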

Additional observations from a re-analysis of the deposited data

How the results depend on the processing

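Among the 10 chaperone genes, 3 passed as deposited, and they were HSP90AA1, HSP90AB1 and HSPA8. The same 3 passed at thresholds of 0.01 and 0.1 and with the Benjamini-Yekutieli adjustment. They also passed with the q-value and without the least precise 25% of genes. The threshold of 0.1 and the q-value, 0.83 times each adjusted p, could not remove a gene that passed as deposited. The results at 0.01 and with Benjamini-Yekutieli follow from the deposited adjusted p-values, of which the largest among the 3 was 0.00262. Leaving out the least precise genes could not leave out these 3, with implied SEs of 0.041 to 0.048, and it lowered the number of tests. Centring on the median or on the precision-weighted mean left 2, HSP90AA1 and HSPA8; HSP90AB1 then had adjusted p = 0.428 and 0.366, recomputed from the authors' p-values. For HSPA8 these values were 0.0388 and 0.0297. The coefficient of STIP1, 0.0053 as deposited, turned to -0.0897 and -0.0844. None of the 32 further co-chaperones passed under any of these settings. The 51 calls over all genes became 19 at 0.01, 86 at 0.1 and 18 with Benjamini-Yekutieli, which follows from the thresholds. Either centring left 37 calls, and the split of 40 higher and 11 lower as deposited became 5 and 32 on the median and 6 and 31 on the precision-weighted mean. The precision-weighted mean of the 10 coefficients was 0.24 against a median of 0.23. On a log2 reading the fold would be 1.26 for HSP90AA1, 1.16 for HSP90AB1 and 1.19 for HSPA8. No paired analysis was possible because the table holds no values per library, which also kept replicates from being left out and a filter on abundance from being applied.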
